A study of Mus musculus with 6 samples.

Results

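Retinas from newborn mice were compared between wildtype animals and animals lacking cyclin D1 (Cyclin D1 -/-), and the values below are those of the genes that encode the proteins of the cytosolic ribosome. Members were taken by name, as genes whose only platform symbol was Rpl or Rps with a number and at most 1 letter, or Rplp0, Rplp1, Rplp2 or Rpsa, and 46 of the 18193 named genes on the array qualified. They were carried by 100 probe sets, and the one whose deposited signal averaged highest over the 6 pools stands for its gene. A further 28 ribosomal protein symbols stood only on probe sets that also name other genes or pseudogenes, so genes such as Rpl5, Rplp1 and Rps27a have no value of their own here. The study asked how expression in the retina changes once cyclin D1, which its authors had located on chromatin, is missing. Each genotype was represented by 3 pools of neonatal retinas, the labels state neither the number of animals in a pool nor how the knockout allele was made, and each pool went onto 1 Affymetrix array. Where nothing says that pools came from separate litters, the p-values measure only the spread between these pools, and in bulk tissue less RNA per cell cannot be told apart from fewer cells of a type.

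The ribosome consists of a small subunit, which reads the messenger RNA, and a large subunit, which joins amino acids. Each subunit is built from ribosomal RNA and many proteins, most of them present once per ribosome and encoded by a single active gene with many processed pseudogenes. Their messages start with a run of pyrimidines, the 5' terminal oligopyrimidine (TOP) tract, through which the mTOR kinase and the protein Larp1 adjust their translation together. In growing tissues such as the neonatal retina, where progenitors still divide, these messages are among the abundant ones. Cyclin D1 is the regulatory subunit of kinases that drive those progenitors into S phase.

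The start sites show a feature of the members that their names do not use. Of the 46 members, 40 matched the RefSeq table of gene starts (GRCm38.p6), and 8 of these (20% of the matched members) had the C of the annotated start followed by at least 4 pyrimidines, against 3.24% of the 8888 tested genes that matched. A longer tract, a C with at least 7 pyrimidines after it, stood somewhere between 20 bases before and 50 after an annotated start in 31 members (77.5%) and in 23.1% of all tested genes. Translation factors had the longer tract in 12 of 36 matched genes and mitochondrial ribosomal proteins in 15 of 67. Annotated starts are often some bases away from the true one, so a tract that is not at the first base is no sign that the message lacks it. The motif CCGGAAG was read on both strands over the 300 bases of the table. On the other strand it reads CTTCCGG, whose first letters can overlap a pyrimidine tract. It was found in 20 of the 40 members and in 19.8% of all tested genes. It stood in 25 of 57 matched ribosome biogenesis genes (43.9%), 25 of 67 mitochondrial ribosomal proteins (37.3%) and 12 of 36 translation factors (33.3%). The motif is thus not particular to the members. The 30 bases from 10 before the start to 20 from it are shown for 6 members with the tract at the start, with the tract in capitals, and for Rpsa and Rpl6, which are described below and have none there.
Rpl38, chr11:114668570-114668599, plus strand: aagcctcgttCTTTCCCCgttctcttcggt
Rpl35, chr2:39005112-39005141, minus strand: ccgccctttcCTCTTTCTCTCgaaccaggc
Rplp2, chr7:141447641-141447670, plus strand: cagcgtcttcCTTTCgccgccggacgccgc
Rps10, chr17:27635225-27635254, minus strand: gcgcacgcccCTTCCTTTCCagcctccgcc
Rps18, chr17:33955646-33955675, minus strand: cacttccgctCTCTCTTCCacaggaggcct
Rps6, chr4:86857348-86857377, minus strand: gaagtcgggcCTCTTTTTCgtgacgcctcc
Rpsa, chr9:120127756-120127785, plus strand: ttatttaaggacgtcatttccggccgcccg
Rpl6, chr5:121204491-121204520, plus strand: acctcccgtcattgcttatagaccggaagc
The 6 tested members with the tract at the start had a median log2 difference between genotypes of 0.00, and the 28 matched members without it had 0.02.

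The labels and the tissue were checked first. Ccnd1, which encodes cyclin D1, read 12.60, 12.62 and 12.66 in the wildtype pools and 8.37, 8.49 and 8.60 in the knockout pools, on the scale used throughout, log2 of the normalised signal plus 16. Its difference was -4.14 (SE 0.08, limma adjusted p = 2.33e-07), and the 2 genotypes were far apart, as the labels of the 6 pools have it. All 10 retinal markers named on the array passed the filter on dim genes, and 1 of them, Lhx2, was lower in the knockout. Lens markers rose in 13 of 18 tested members and fell in none, and held 0.0561% to 0.153% of the deposited signal in wildtype pools and 0.420% to 1.15% in knockout pools. Markers of proliferating cells fell in 16 of 17, with 0.211% to 0.221% of the signal in wildtype and 0.111% to 0.121% in knockout pools. Of 5 named red blood cell markers 1 was bright enough to test, and their share of signal was 0.00406% to 0.0115%. Of 6 tested pigment epithelium markers 0 were higher and 1 was lower, and the 10 named ones held 0.0194% to 0.0280%. The part of these shifts in the values below was not tested.

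No ribosomal protein gene passed the test in either direction. Of the 46 members, 40 were bright enough to be tested, and 0 were higher and 0 lower at an adjusted p of 0.1 (limma), while 2.03% of the 10916 tested genes were higher and 2.64% were lower. At an unadjusted p under 0.05 there were 3 members, Rpl6 upward and Rpsa and Rpl13a downward, which is 7.5% of the members against 13.4% of all tested genes. An error model written from the settings in the labels called 0 members, but it called only 84 higher and 115 lower among all tested genes. The median log2 difference of the members was 0.02, equal to the 0.02 of all tested genes, with 24 members above 0 and 16 below. The members' median was -0.04 where arrays were only centred on their medians, against 0.06 for all tested genes. The median size of a difference was 0.10, a fold of 1.07, and 38 of the 40 differed by less than 1.25-fold. In 8 members (20%) the values of the genotypes did not overlap, which is close to the 19.9% of all tested genes. Other bright genes had a larger share, given below.

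**Figure D1:**
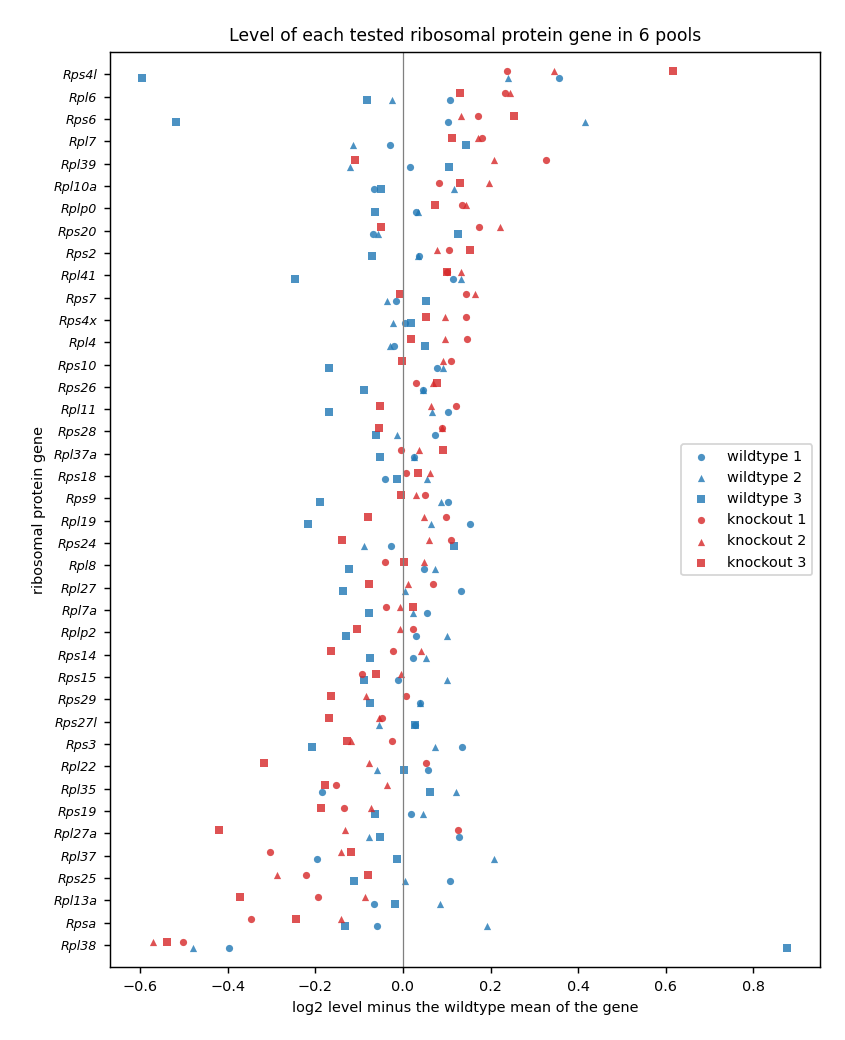
Level of each of the 40 tested ribosomal protein genes in the 6 pools, as log2 level minus the wildtype mean of that gene (x axis), 1 gene per line (y axis), wildtype pools in blue and knockout pools in red. Most genes lie within 0.2 of their wildtype mean in every pool, and wildtype pool 3 stands apart for Rpl38, Rps4l and Rps6.

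The intervals of the differences reflect only the spread between these pools after quantile normalisation. They cover neither the choice of scaling nor probes that match other transcripts. The 95% interval of the difference lay inside a 1.5-fold change (0.58 on the log2 scale) for 37 of the 40 members, which is 92.5%, and for 64.5% of all tested genes. The exceptions were Rpl38, Rps4l and Rps6. A level of at least 10 was chosen, after the values were seen, to compare like with like. At that level the intervals of 36 of 37 members were inside 1.5-fold, against 82.1% of 390 other genes. There 0 members were called against 17.7% of the others. The genotypes did not overlap in 8 of these members (21.6%), against 40% of the others. The within-genotype SD was similar, with a median of 0.10 for both the members and the other genes, whereas the median size of a difference was 0.09 for the members and 0.15 for the others.

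**Figure D2:**
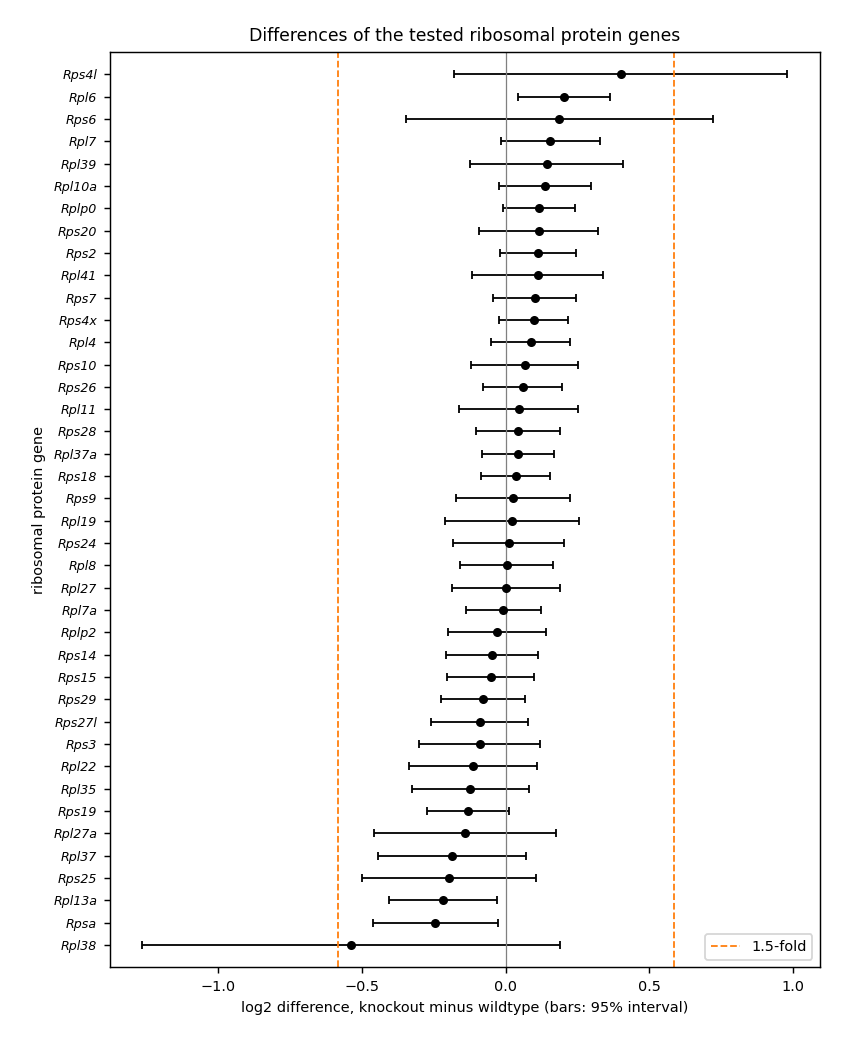
Log2 difference between knockout and wildtype pools with its 95% interval (x axis) for each tested ribosomal protein gene (y axis), 3 pools per genotype. Dashed lines mark a 1.5-fold change, and only the intervals of Rpl38, Rps4l and Rps6 cross one.

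The subunits were also described separately, and the difference between them was not tested. The 20 tested large subunit genes had a median difference of 0.01, with 12 above 0 and 8 below, and the 20 small subunit genes had a median of 0.03, again with 12 above and 8 below. In each set 4 genes (20%) had pools that did not overlap, close to the 19.9% of all tested genes.

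Among large subunit genes, Rpl6 had the largest upward difference. It read 11.95, 11.82 and 11.76 in the wildtype pools and 12.07, 12.09 and 11.97 in the knockout pools. The highest wildtype pool was just below the lowest knockout pool, and the difference of 0.20 (SE 0.07, a fold of 1.15) had an adjusted p of 0.231. Rpl7, a protein bound to the RNA of the large subunit, read 12.11, 12.02 and 12.28 in wildtype and 12.32, 12.31 and 12.25 in knockout retinas. Its groups overlapped through wildtype pool 3, and the difference of 0.15 (adjusted p = 0.451) became 0.23 without that pool, where it passed (adjusted p = 0.0586), and 0.10 without wildtype pool 2 (adjusted p = 0.810). Without wildtype pool 3, 8.11% of all tested genes were called higher and 9.73% lower, so calls in that fit stand against a larger background. Rpl39, which lines the tunnel through which the new chain leaves, read 11.91, 11.77 and 11.999 against 12.22, 12.10 and 11.78, so that knockout pool 3 fell among the wildtype pools (difference 0.14, adjusted p = 0.757). Leaving out single pools moved this difference between 0.05 and 0.27.

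Rpl38 had the largest downward difference, and it rests on 1 wildtype pool. Rpl38 is a large subunit protein known for its part in the translation of Hox messages. It read 12.59 and 12.50 in wildtype pools 1 and 2, 13.86 in wildtype pool 3, and 12.48, 12.41 and 12.44 in the knockout pools. The deposited signal in wildtype pool 3 was 15852 units, where the other 5 pools had 5393 to 6210. The knockout pools were all lower than the wildtype pools, yet the difference of -0.54 (95% interval -1.26 to 0.19, adjusted p = 0.581) was -0.10 without wildtype pool 3. Rpl38 has a single named probe set, so no second probe set can be set beside that value.

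Rpl13a, also known as a regulator of translation outside the ribosome, read 12.89, 13.04 and 12.94 in wildtype and 12.76, 12.87 and 12.59 in knockout pools. The groups did not overlap, but wildtype pool 1 was only just above knockout pool 2, and the difference of -0.22 (SE 0.08) had an adjusted p of 0.281. All 4 of its probe sets were lower in the knockout, by 0.12 to 0.22 in size, and the difference of the leading one was -0.14 without knockout pool 3. Rpl37, a small protein of the large subunit, read 10.37, 10.78 and 10.55 against 10.26, 10.43 and 10.45, with overlapping groups (difference -0.19, adjusted p = 0.586). Leaving out single pools gave -0.29 to -0.08, the smallest without wildtype pool 2, and it was -0.03 in the deposited values. Rpl11, which can bind and restrain Mdm2 and so stabilise p53, read 11.36, 11.32 and 11.09 in wildtype and 11.38, 11.32 and 11.21 in knockout pools, a difference of 0.04 whose 95% interval ran from -0.16 to 0.25. Rpl41, the smallest ribosomal protein, read 13.18, 13.20 and 12.82 against 13.16, 13.20 and 13.16, and differed by 0.11 with all 3 wildtype pools and by -0.01 without wildtype pool 3.

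The stalk proteins, which recruit elongation factors to the large subunit, moved little. Rplp0, the base of the stalk and a common reference gene, read 12.77, 12.77 and 12.67 in wildtype and 12.87, 12.88 and 12.81 in knockout retinas. The knockout pools were all higher, by 0.12 on average (SE 0.05, adjusted p = 0.421). Rplp2 read 12.57, 12.64 and 12.41 against 12.57, 12.54 and 12.44, an overlapping pair with a difference of -0.03 and a 95% interval from -0.20 to 0.14.

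Among small subunit genes, Rpsa had the largest downward difference. Rpsa encodes a protein that serves in the small subunit and was also described as a laminin receptor. It read 12.76, 13.01 and 12.69 in the wildtype pools and 12.47, 12.68 and 12.58 in the knockout pools, again with groups that did not overlap. The difference was -0.24 (SE 0.09, a fold of 1.19, adjusted p = 0.296), and it was -0.31 and passed without wildtype pool 3 (adjusted p = 0.0769), but -0.15 without wildtype pool 2 (adjusted p = 0.607). Rps25 read 7.37, 7.27 and 7.15 against 7.04, 6.98 and 7.19, with knockout pool 3 among the wildtype values (difference -0.20, adjusted p = 0.655). Rps29 read 13.31, 13.31 and 13.20 against 13.28, 13.19 and 13.11, with overlapping groups, and Rps7, which like Rpl11 can bind Mdm2, read 12.98, 12.96 and 13.05 against 13.14, 13.16 and 12.99. Their differences were -0.08 (adjusted p = 0.740) and 0.10 (adjusted p = 0.617), and leaving out single pools gave -0.12 to -0.04 and 0.07 to 0.15. Rps19, whose human counterpart is mutated in Diamond-Blackfan anaemia, read 11.83, 11.86 and 11.75 against 11.68, 11.74 and 11.63, and Rps2, at the entry of the messenger RNA channel, read 12.30, 12.29 and 12.19 against 12.37, 12.34 and 12.41. The groups lay apart in both, lower in the knockout for Rps19 (-0.13, adjusted p = 0.434) and higher for Rps2 (0.11, adjusted p = 0.496).

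The largest upward difference of all members was that of Rps4l, a relative of the X-linked Rps4x. Rps4l read 7.67, 7.55 and 6.72 in wildtype and 7.55, 7.66 and 7.93 in knockout retinas, so wildtype pool 3 alone was low. The difference of 0.40 (95% interval -0.18 to 0.98, adjusted p = 0.623) was 0.10 without that pool. With a block for the brighter and dimmer array sets it was 0.60 and passed (adjusted p = 0.0525), and when the first 2 pools of a genotype were averaged to 1 sample it was also 0.60 and did not pass (adjusted p = 0.993). Rps4x itself read 12.56, 12.53 and 12.57 against 12.70, 12.65 and 12.61, a difference of 0.10 with groups apart (adjusted p = 0.519). Rps6, the small subunit protein that S6 kinase phosphorylates when mTOR is active, read 6.64, 6.96 and 6.02 against 6.71, 6.67 and 6.80. Its difference of 0.19 became -0.07 without wildtype pool 3.

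The other 19 tested members differed by -0.14 to 0.14, with a median of 0.02, and the groups overlapped in every one of them. The lowest adjusted p among them was 0.487. They include Rps3, at the entry of the small subunit's message channel, and Rpl4 and Rpl8, proteins of the core of the large subunit.

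Pool 3 of each genotype lay lower than the others in the median of the members. Wildtype pool 3 held the lowest value for 18 of the 40 tested members (45%) and the highest for 2 (5%), whereas over all tested genes it was lowest in 33.4% and highest in 25.5%. The median deviation of the members from their mean over 6 pools was -0.06 in wildtype pool 3 and -0.05 in knockout pool 3, and 0.04 in each of the other 4 pools. The SD over members of the difference between 2 pools was 0.09 for knockout pools 1 and 2 and 0.13 for wildtype pools 1 and 2, and 0.31 to 0.36 for every pair with wildtype pool 3. Over all tested genes the same SDs were 0.21, 0.22 and 0.40 to 0.52, so pairs with that array scattered more there too. Among the members, Rpl38 (13.86), Rps4l (6.72) and Rps6 (6.02) stood far from their other pools in wildtype pool 3. These genes weighed heavily on the members' SDs of those pairs. The arrays were split by rank of the mean signal of bacterial hybridisation controls (BioB and BioC). The brighter set was wildtype pool 3 (1201 units) and knockout pools 1 and 2 (961 and 1060 units). The dimmer set was wildtype pools 1 and 2 (850 and 854) and knockout pool 3 (771). The cut was fixed at equal numbers and does not fall at the widest gap. Within that brighter set the members' median difference was 0.09, and within the dimmer set it was -0.08, each value resting on a single array of 1 genotype. All tested genes had medians of 0.01 and 0.00 there. Whether the sets account for the members' values was not tested.

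**Figure D3:**
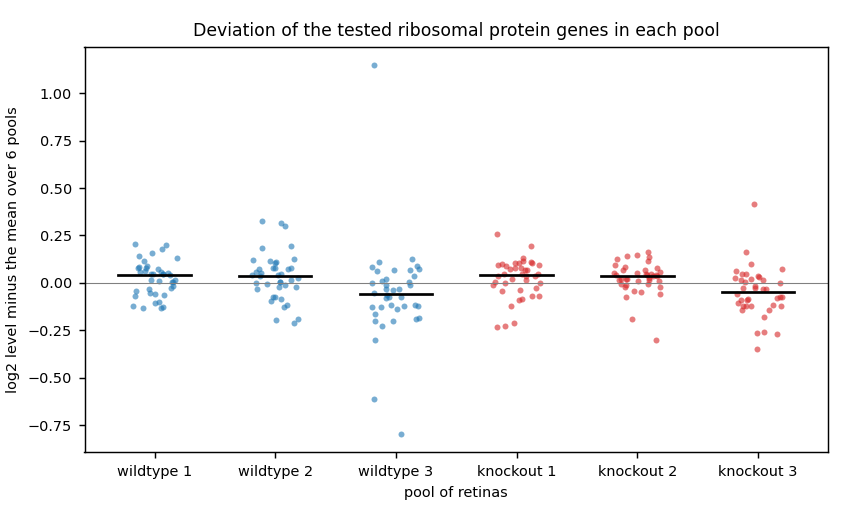
Log2 level of each of the 40 tested ribosomal protein genes minus its mean over the 6 pools (y axis), by pool (x axis), with the median as a bar. The medians are -0.06 in wildtype pool 3, -0.05 in knockout pool 3 and 0.04 in the other pools, and the point far above the rest in wildtype pool 3 is Rpl38.

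As a share of all signal deposited, the members together were lower in the knockout. They held 3.15%, 3.31% and 3.09% in the wildtype pools (3.18% ± 0.11, SD, n = 3) and 3.02%, 2.78% and 2.98% in the knockout pools (2.93% ± 0.13, SD, n = 3). The knockout pools were all lower, by 0.257 percentage points between the means. This sum is dominated by the brightest probe sets and uses the deposited values, before quantile normalisation, and no test was made of it. In the deposited values the members' median log2 difference was 0.03 and that of all tested genes was 0.13, so the members lay 0.10 below. Centring arrays on their medians shifts all genes of an array alike, so the same gap of 0.10 there follows by construction. After quantile normalisation the members lay level with all tested genes. The members' position relative to other genes therefore depended on whether arrays were quantile normalised. The count of called members was 0 under each of the 3 scalings tried.

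Where a gene had several bright probe sets, their differences were mostly close together but not always of the same sign. Of 19 such members, 12 had probe sets of a single sign and 7 of both, and in 16 the differences lay within 0.2 of each other. The median size of a member's difference was itself only 0.10, so a spread within 0.2 cannot show agreement. Rpl22 was the widest. Rpl22 is a large subunit protein that is dispensable for most translation and has a close relative, Rpl22l1. Its brightest probe set read 11.86, 11.74 and 11.81 in wildtype and 11.86, 11.73 and 11.49 in knockout pools (difference -0.11), and the second read 10.97, 10.96 and 10.89 against 10.85, 10.71 and 10.65 (difference -0.20). The dimmest read 8.86, 8.86 and 8.85 against 9.42, 9.36 and 9.19. In that probe set the knockout pools were clearly higher, with a difference of 0.47 (SE 0.10), and it was called when each gene was represented by its probe set with the largest difference (adjusted p = 0.0381), a choice that favours calls. The brightest and the dimmest are both of the _s_at type, whose probes may match other transcripts. The second is a plain _at probe set, lower in the knockout with groups that did not overlap. The direction for Rpl22 therefore differs between probe sets.

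**Figure D4:**
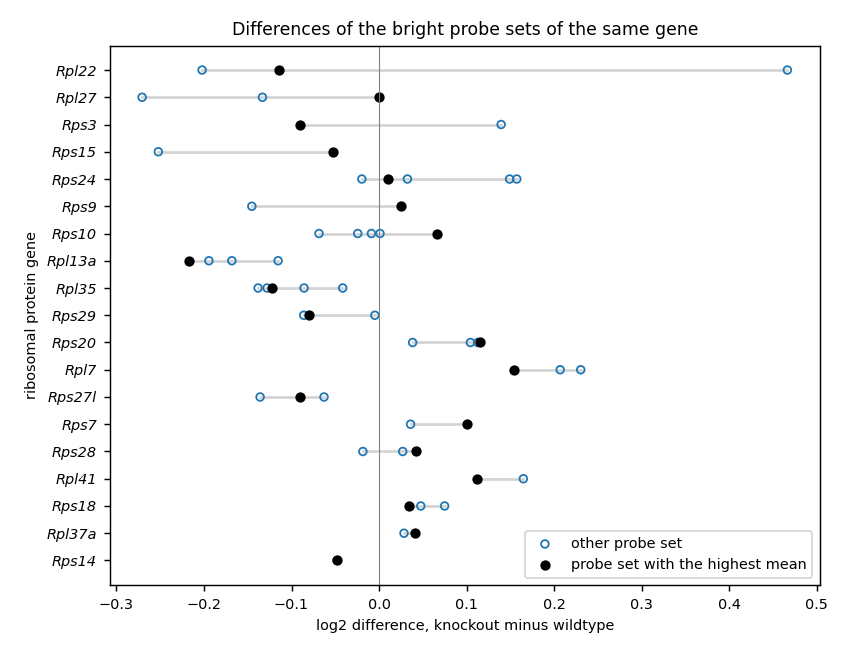
Log2 difference between knockout and wildtype pools (x axis) for each bright probe set of the 19 ribosomal protein genes that have more than 1 (y axis), the probe set with the highest mean filled. Rpl22 spreads most, from -0.20 to 0.47, and in 16 of the genes the points lie within 0.2 of each other.

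Probe sets of ribosomal protein genes can share sequence with pseudogenes and with each other. Of the 46 leading probe sets, 13 end in _x_at and 2 in _s_at, the platform's marks for probes that may match other transcripts. For 10 members, among them Rps6, Rps25, Rps2, Rpl37 and Rpl39, a brighter probe set exists that names the gene together with others, so the values above come from a dimmer probe set of those genes. Over the 27 probe sets that carry the 28 symbols without a value of their own, levels ran from 11.45 to 13.06, with 15 higher and 12 lower in the knockout and a median difference of 0.01 (lowest -0.14, highest 0.17). The pools lay apart in 2 of these 27, against 19.9% of all tested genes and 40% of the other tested genes at a level of at least 10. Tests were not made on them.

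The 6 members that were too dim to test were Rpl12, Rpl14, Rpl39l, Rpl3l, Rps16 and Rps27. Rpl3l and Rpl39l are relatives of Rpl3 and Rpl39 best known from muscle and testis. The deposited signal of Rpl3l was 4.25 to 24.2 units over the 6 pools and that of Rpl39l 1.00 to 11.9. For the other 4, Rpl12, Rpl14, Rps16 and Rps27, a brighter probe set names the gene together with others, so their low values do not describe the main message. Among the 5 relatives bright enough to test, 0 were called, with 3 above 0 and 2 below. Values of some of them follow. Rps27l, a relative of Rps27 and a p53 target, read 10.32, 10.24 and 10.32 in wildtype and 10.24, 10.24 and 10.12 in knockout pools (difference -0.09, 95% interval -0.26 to 0.08). Rpl22l1 read 10.48, 10.23 and 10.38 against 10.91, 10.81 and 10.53, and although every knockout pool was higher, its difference of 0.39 (SE 0.11) had an adjusted p of 0.149. Rpl7l1 differed by 0.28 (adjusted p = 0.594). Fau, which is not on the list of relatives and encodes a ubiquitin-like protein fused to a small subunit protein, differed by -0.13 (adjusted p = 0.674).

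The wider machinery of protein synthesis showed few calls as well. Of 76 tested mitochondrial ribosomal protein genes, which build the separate ribosome of mitochondria, 0 were higher and 0 lower (3 had an unadjusted p under 0.05), with a median difference of -0.01, which was 0.13 in the deposited values, as for all tested genes. Without wildtype pool 3, 13 of them were lower, in a fit that called 9.73% of all tested genes lower. Of 42 translation factors, 1 was higher and 0 were lower, with a median of 0.07. The one was Eif4a2, an RNA helicase of the cap-binding complex, which read 9.49, 9.34 and 9.28 in wildtype and 9.89, 9.85 and 9.73 in knockout pools. Its knockout pools were all higher, by 0.45 (SE 0.09, a fold of 1.37, adjusted p = 0.0413), and the call ended without wildtype pool 2 (adjusted p = 0.142), knockout pool 1 (0.216) or knockout pool 2 (0.215), and with arrays centred on their medians (0.109). Of 62 ribosome biogenesis genes, which make ribosomal RNA and assemble the subunits, 0 were higher and 1 was lower, with a median of -0.07, which was 0.03 in the deposited values. Of the 62, 43 (69.4%) lay below 0, against 45.6% of all tested genes. The one was Emg1, a methyltransferase for ribosomal RNA, which read 9.69, 9.73 and 9.34 against 9.06, 9.12 and 9.16. Its fall of 0.47 on the log2 scale (SE 0.12, adjusted p = 0.0852) lost its call in 13 of 19 alternatives, 5 of them leaving out a single pool, and 10 biogenesis genes were lower without wildtype pool 3, against the same 9.73% of all tested genes. Among 9 tested regulators and sensors, such as Mtor, Larp1 and Mycn, 0 were called, with a median of 0.00, and Mycn, the Myc family gene of neural progenitors, differed by 0.00. The genes of these lists are not independent of each other, and no difference between lists was tested.

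**Figure D5:**
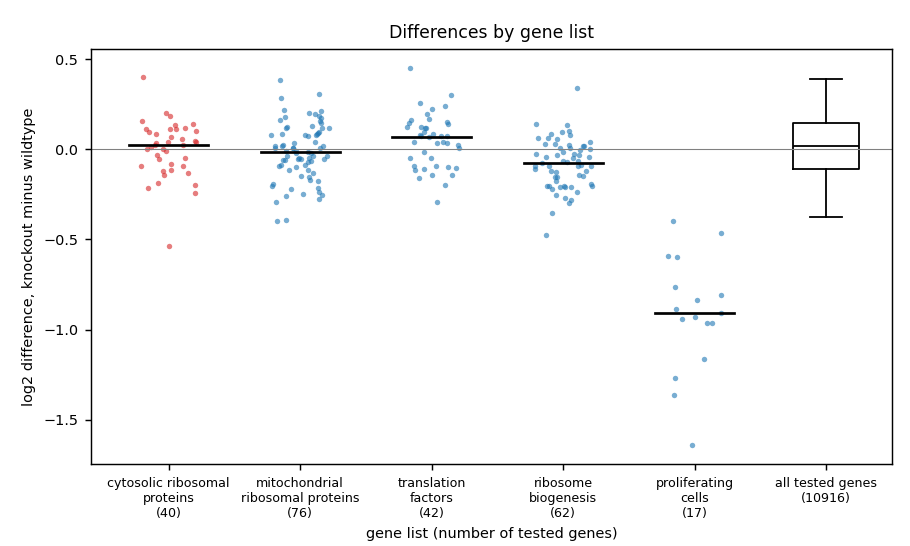
Log2 difference between knockout and wildtype pools (y axis) for the tested genes of each list (x axis), with the list's median as a bar. The box on the right gives the median, quartiles and 5th to 95th percentiles of all 10916 tested genes, and the 17 proliferation markers have a median of -0.91, with a range that overlaps the lowest ribosomal protein gene, Rpl38 at -0.54.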

How the data were processed

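The authors deposited 1 linear intensity per probe set and array for 45101 probe sets. Which program summarised the probes, and how it scaled them, is not stated in the labels used here. Per the labels, retinas were pooled, and biotinylated probes were made from RNA in 1 round of amplification. Left out were 64 control probe sets, 932 with several gene symbols and 9160 unnamed.

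Array medians ran from 40.6 to 50.5 units (5.34 to 5.66 on the log2 scale, beyond a tolerance of 0.1), so intensities were quantile normalised, floored at 1 and taken to log2(value + 16), which understates the folds of dim genes. The dimmest 40% of genes (7277) were not tested. The other 10916 were fitted with limma 3.58.1 (R 4.3.3, intensity trend, no covariate, two-sided, Benjamini-Hochberg over all tested genes, threshold 0.1 as in the labels). The fit was tested on simulated data. The number of arrays limits the precision. Starts came from RefSeq, and figures from matplotlib 3.10.9.

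The members and lists were chosen with earlier results of these data known. The rule named Ccnd1, called members, the 5 tested members with the largest rises and the 5 with the largest falls, the 3 brightest and 3 dimmest, the stalk proteins, Rpsa, Rpl5, Rpl11, Rps6, Rps27a, the relatives, and up to 4 called genes of each other list. Marker lists are given by counts instead, apart from Lhx2. Rpl22, Rps2, Rps3, Rps4x, Rps19, the members without a test and those with start sequences were chosen with their values in view.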

Additional observations from a re-analysis of the deposited data

How the results depend on the processing

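Over 19 alternatives the count of called ribosomal protein genes was 0 higher and 0 lower, with these exceptions. It was 1 higher with the probe set of largest difference (Rpl22), and 1 higher with a block for the array sets (Rps4l, adjusted p = 0.0525), a call that ended with pools 1 and 2 averaged (adjusted p = 0.993), where all-gene calls were 17 higher and 25 lower against 596 and 428 with the block. Over the leave-one-out fits it ran from 0 to 1 higher and from 0 to 2 lower, the upper ends without wildtype pool 3 (Rpl7 higher, Rpsa and Rps3 lower), where calls over all genes went from 510 to 1947. The median difference of the members, 0.02, was -0.039 with arrays centred on their medians, 0.093 where controls were brighter, -0.085 where they were dimmer, and -0.052 to 0.061 leaving out single pools (lowest without wildtype pool 3). Leaving out single pools, the differences ran from -0.073 to 0.394 for Rps6, from -0.040 to 0.096 for Rpl11 and from -0.095 to 0.021 for Rplp2. The lowest of each, and -0.012 for Rpl41, came without wildtype pool 3, and Rplp2 was 0.021 without wildtype pool 2 and 0.0082 without knockout pool 3. The cause was not tested. Eif4a2 lost its call in 7 of 19 alternatives and Ccnd1 in 0.

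Deviations of same-numbered pools from their group means had correlations over tested genes of 0.18, -0.35 and -0.48. These cannot decide whether the numbers pair the pools, because deviations from a shared group mean depend on each other. A replicate block gave 127 genes higher and 143 lower, against 222 and 288 without it, and 0 members called. Probes that match pseudogenes and the unknown summary method limit these values.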
